A study of Mus musculus with 4 samples.

Results

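Claudins and epithelial adhesion genes were followed in cultured mouse pancreatic fibroblasts: Cldn18, Cldn1, Cldn3, Cldn4, Cldn7, Epcam, Cdh1, Ocln and Tjp3, 9 of the 38921 gene intervals in the deposited count tables. They were chosen by the counts of these same libraries in KPC and wild type, and listed by symbol, so those values are given as a description and support nothing. The libraries were 2 from KPC and 2 from wild type mice, all of mixed strain, from cells separated from the pancreas by gravity and grown in serum. The name KPC usually stands for mice that develop pancreatic tumours because Cre, driven by the Pdx1 promoter of pancreatic epithelium, switches on tumour-driving alleles, a mutant Trp53 allele among them. The labels give only the name KPC. They call the libraries biological replicates and name no animals, and spread between libraries may therefore be partly technical.

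Epithelial sheets are held together by junctions. Tight junctions seal the space between neighbouring cells with claudins and occludin, which are membrane proteins anchored to scaffold proteins of the ZO family, and adherens junctions bind cells to each other through E-cadherin and catenins. EpCAM is a separate adhesion protein of the epithelial surface that binds claudin-7. In the pancreas E-cadherin and EpCAM are made by epithelial cells, and fibroblasts are known for using other cadherins, such as N-cadherin and cadherin-11.

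Library totals were 57926327 and 68312367 counts in KPC, against 53232634 and 22302141 in wild type. Levels are counts scaled to the library total with edgeR's TMM factors (CPM). All 10 fibroblast markers listed, Col1a1 and Vim among them, had reads in all 4 libraries, and their summed level was 11109 and 12754 CPM in KPC and 13402 and 11257 CPM in wild type. Trp53 stood at 22.8 and 16.7 CPM in KPC against 34.2 and 29.1 CPM in wild type. Counts per gene cannot separate the alleles. The kit does not mark strand, so reads of overlapping genes on opposite strands cannot be told apart.

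Promoter sequence of 8 of the 9 genes (all but Cdh1) was taken from RefSeq (build GRCm38.p6), in 12 windows because some genes have several starts. The windows shown are the 250 bases before the starts of Epcam (chr17:87635729-87635978, plus strand) and Cldn4 (chr5:134946935-134947184, minus strand), which were high in wild type 2, and before the upstream (chr9:99717268-99717517, minus strand) and downstream (chr9:99710064-99710313, minus strand) starts of Cldn18, which was low there. Positions count from 0 in the Epcam window and from 1 in the minus-strand windows. Capitals mark CACCTG or its reverse complement CAGGTG, the E-box letters to which Snail and Zeb factors, repressors of E-cadherin, are known to bind.
Epcam: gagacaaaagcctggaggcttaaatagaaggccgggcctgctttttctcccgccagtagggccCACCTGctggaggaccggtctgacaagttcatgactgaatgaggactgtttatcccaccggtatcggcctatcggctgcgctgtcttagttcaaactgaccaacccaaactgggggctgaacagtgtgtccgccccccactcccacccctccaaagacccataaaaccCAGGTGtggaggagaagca
Cldn4: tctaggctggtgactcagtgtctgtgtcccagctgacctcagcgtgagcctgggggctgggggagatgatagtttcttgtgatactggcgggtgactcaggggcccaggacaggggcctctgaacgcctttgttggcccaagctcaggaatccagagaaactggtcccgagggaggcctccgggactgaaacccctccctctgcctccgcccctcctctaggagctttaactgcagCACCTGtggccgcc
Cldn18, upstream start: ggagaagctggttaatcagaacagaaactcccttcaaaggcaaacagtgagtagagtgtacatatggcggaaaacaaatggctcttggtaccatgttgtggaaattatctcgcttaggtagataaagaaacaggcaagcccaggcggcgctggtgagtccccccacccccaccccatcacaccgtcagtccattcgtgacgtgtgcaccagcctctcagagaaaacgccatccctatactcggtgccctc
Cldn18, downstream start: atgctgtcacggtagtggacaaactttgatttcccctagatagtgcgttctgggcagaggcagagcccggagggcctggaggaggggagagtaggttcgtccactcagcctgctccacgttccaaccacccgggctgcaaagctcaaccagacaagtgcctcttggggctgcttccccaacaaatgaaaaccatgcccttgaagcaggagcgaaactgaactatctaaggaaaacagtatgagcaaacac
The E-box letters stood in 6 of the 12 windows (Epcam, Cldn4, 1 of 2 Cldn7 windows, 1 of 2 Ocln windows and both Tjp3 windows), and in 17.2% of the 32851 windows of the same length before all starts in the table. The Cldn7, Ocln and 1 of the Tjp3 windows that held them included 221, 155 and 54 bases of annotated exon. Neither Cldn18 window held them, nor did the windows of Cldn1 and Cldn3. The grainyhead letters AACNGGTT (either strand), of a factor family that activates epithelial genes, stood in 0 of the 12 windows and in 1.79% of all. The AP-1 letters TGANTCA, which do not overlap the E-box letters in Cldn4, stood in 1 of the 12 windows, that of Cldn4, and in 6.75% of all. A match of letters is a description and says nothing about binding here.

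Of the 9 genes, 7 had a positive log2 fold change and 2 a negative one, but the groups overlapped for most. There were 3 genes that had both KPC values above both wild type values (Cldn18, Cdh1 and Ocln), and 1 that had both below (Cldn1). Among all 23046 rows tested, 20.6% had both KPC values above and 20.5% had both below. A log2 fold change above 1 was reached by 3 of the 9 genes (Cldn18, Cdh1 and Cldn7), and by 5.83% of all rows. The median log2 fold change was 0.46 over the 9 genes and -0.01 over all rows. All 9 passed the filter on low counts.

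At an adjusted p of 0.05, edgeR's quasi-likelihood test called 0 of the 9 genes, and it called 0% of all rows higher and 0% lower. Without adjustment, p was under 0.05 for 1090 rows that were higher in KPC (4.73%) and 909 that were lower (3.94%), and for 2 of the 9 genes, Cldn18 (higher) and Cldn1 (lower). limma voom also called 0% of rows. DESeq2 called 1.44% of rows higher and 1.28% lower, and Cldn18 was the 1 of the 9 among them. Wild type 1 and wild type 2 differed more for these genes than for most: 8 of the 9 were more than 1 apart in log2 CPM between them, where 14.9% of all rows were. Between KPC 1 and KPC 2, 5 of the 9 were more than 1 apart, against 6.97% of all rows. The median absolute difference within KPC was 1.47 log2 units for the 9 genes and 0.25 for all rows, and within wild type it was 2.13 and 0.35.

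**Figure D1:**
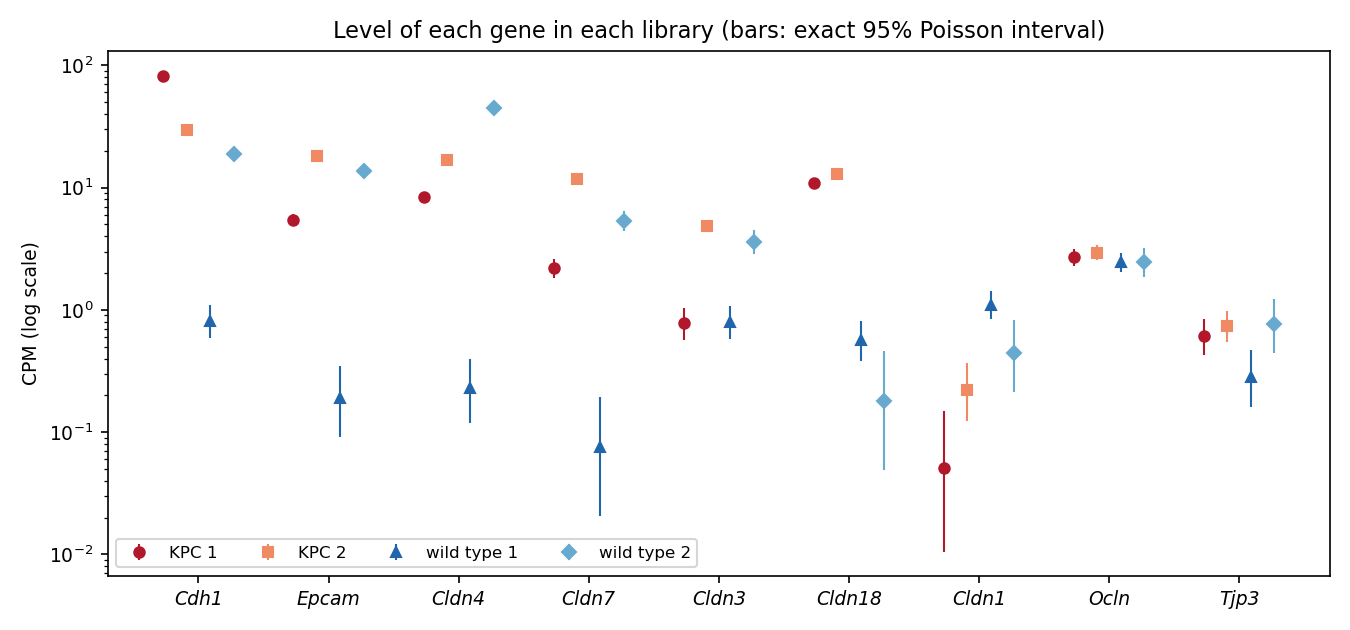
Counts scaled to the library total (CPM, log axis) of the 9 genes in KPC 1, KPC 2, wild type 1 and wild type 2; bars are exact 95% Poisson intervals, which cover counting error only. Cldn18 separates the groups by a wide margin (10.9 and 13.0 CPM in KPC, 0.571 and 0.179 CPM in wild type), while Cdh1, Epcam, Cldn4 and Cldn7 have their lowest value in wild type 1.

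Cldn18 (chromosome 9, 99689462 to 99717267, minus strand, mm10) encodes claudin-18, a tight junction protein of stomach and lung epithelium that is also known from pancreatic precursor lesions and cancer. It had 639 and 881 counts in KPC 1 and KPC 2, and 30 and 4 counts in wild type 1 and wild type 2. That is 10.9 and 13.0 CPM in KPC, against 0.571 and 0.179 CPM in wild type. The groups did not overlap, and the lower KPC value was 19 times the higher wild type value. The means were 11.9 ± 1.504 CPM in KPC and 0.375 ± 0.277 CPM in wild type (SD, n = 2 each), with a log2 fold change of 4.87 ± 0.55 (SE). Leaving out any 1 library gave log2 fold changes from 4.38 to 6.04.

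An antisense gene, Gm16004, lies opposite 8868 bases of the Cldn18 interval. Its row had 2.69 and 2.29 CPM in KPC and 1.92 and 1.79 CPM in wild type. Both KPC values were above both wild type values, as for Cldn18, but the log2 fold change was 0.42 ± 0.27 (SE). Because strand is not marked, reads in the shared bases cannot be assigned to either gene. Reads on Cldn18 covered 3544 and 3230 bases in KPC, 79.6% and 72.5% of the 4455 exon bases. In wild type they covered 441 and 72 bases, 9.90% and 1.62%. Covered bases grow with the number of reads, so these shares follow the counts in part.

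Cldn18 did not move with the other epithelial genes in wild type 2. Its CPM divided by that of Epcam was 2.01 and 0.716 in KPC 1 and KPC 2, against 3.0 in wild type 1 (on 30 and 10 counts) and 0.0132 in wild type 2. Among coding genes, Hal, a histidine-degrading enzyme gene, was the closest to Cldn18 in pattern over the 4 libraries (root mean square difference 0.634 log2 units), at 16.8 and 44.8 CPM in KPC and 0.932 and 0.850 CPM in wild type. Gda (20 and 27.5 CPM in KPC, 2.24 and 1.65 CPM in wild type), the guanine deaminase gene, and Dynap (13.7 and 4.14 CPM in KPC, 0.133 and 0.0447 CPM in wild type) came next, of 13438 candidates. Of the other 8 genes followed, Cdh1 was nearest to Cldn18, at 2.3 log2 units.

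Cdh1 (chromosome 8, 106603352 to 106670246) encodes E-cadherin, the adhesion receptor of epithelial adherens junctions. It had the most counts of the 9 genes in both KPC libraries and in neither wild type library, and stood at 81.5 and 29.4 CPM in KPC 1 and KPC 2, against 0.818 and 18.9 CPM in wild type 1 and wild type 2. The groups did not overlap, but the margin was narrow: KPC 2 was 1.56 times wild type 2, while wild type 2 was 23.1 times wild type 1. The means were 55.5 ± 36.8 CPM in KPC and 9.87 ± 12.8 CPM in wild type (SD, n = 2 each), and the log2 fold change was 2.51 ± 1.40 (SE). It was 1.55 without wild type 1 and 6.08 without wild type 2. Covered bases came to 125.2% and 118.4% of the 4429 exon bases in KPC and to 20.6% and 72.4% in wild type; values above 100% include bases outside the annotated exons.

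KPC 1 was the library in which Cdh1 stood out from Epcam. The Cdh1 to Epcam ratio of CPM was 15.1 in KPC 1 and 1.62 in KPC 2, against 4.3 in wild type 1 and 1.39 in wild type 2. Cdh1 was the 1 gene of the 9 that was higher in KPC 1 than in KPC 2. The coding genes closest to Cdh1 in pattern were Ripk4, an epithelial kinase gene, with 3.81 and 2.09 CPM in KPC against 0 CPM in wild type 1 (0 counts, which allow up to 0.0571 CPM) and 0.894 CPM in wild type 2, and then 4932438H23Rik (93.3 and 56.9 CPM in KPC, 2.05 and 34.1 CPM in wild type). The third was another claudin gene, Cldn6, at 6.20 and 3.86 CPM in KPC and at 1 count (0.019 CPM) and 2.50 CPM in wild type.

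Epcam (chromosome 17, 87635980 to 87651106) encodes the epithelial cell adhesion molecule. It stood at 5.41 and 18.1 CPM in KPC 1 and KPC 2, against 0.190 and 13.6 CPM in wild type 1 and wild type 2. The groups overlapped: wild type 2 lay between the KPC libraries, and wild type 1 had only 10 counts. The log2 fold change of Epcam was 0.80 ± 1.59 (SE), with -0.20 without wild type 1, -0.34 without KPC 2 and 5.94 without wild type 2.

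Cldn7 (chromosome 11, 69964780 to 69967885), whose protein binds EpCAM at the lateral membrane of epithelia, followed Epcam most closely of the 9 genes, at a root mean square difference of 0.286 log2 units. It had 2.19 and 11.8 CPM in KPC, against 0.0761 and 5.37 CPM in wild type. KPC 2 was again the highest, wild type 2 was above KPC 1, and wild type 1 had 4 counts. The Cldn7 to Epcam ratio of CPM was 0.406 and 0.651 in KPC, and 0.400 (on 4 and 10 counts) and 0.395 in wild type. The log2 fold change of Cldn7 was 1.41 ± 1.64 (SE), with -0.29 without KPC 2 and 6.49 without wild type 2.

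The coding genes outside the 9 that were closest to Epcam in pattern were Mmp3, Sfn and Lrrc15. Mmp3, a secreted matrix protease gene, had 20.9 and 51.3 CPM in KPC against 0.742 and 38.0 CPM in wild type. Sfn, an epithelial 14-3-3 protein gene, had 22.3 and 46.8 CPM in KPC against 0.742 and 49.6 CPM in wild type. Lrrc15, a membrane protein gene known from activated fibroblasts, had 4.47 and 19.8 CPM in KPC against 0.285 and 10.3 CPM in wild type. The differences from Epcam were 0.194, 0.247 and 0.351 log2 units.

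Cldn4 and Cldn3, neighbours on chromosome 5 (134945127 to 134946934 and 134986215 to 134987476), encode claudins of simple epithelia and differed in pattern. Cldn4 stood at 8.40 and 16.8 CPM in KPC, against 0.228 and 44.6 CPM in wild type. Wild type 2 was the highest of the 4 libraries and 195 times wild type 1, the widest gap within a group among the 9 genes. The log2 fold change of Cldn4 was -0.82 ± 1.84 (SE), and it turned to 5.78 without wild type 2 and to 1.45 with the replicate number as a block. Cldn3 stood at 0.782 and 4.82 CPM in KPC, against 0.799 and 3.62 CPM in wild type, so that the groups overlapped, with KPC 1 and wild type 1 low and KPC 2 and wild type 2 high. Its log2 fold change was 0.38 ± 1.00 (SE), -1.48 without KPC 2 and -0.36 without wild type 1. The Cldn4 to Cldn3 ratio of CPM was 10.7 and 3.49 in KPC, and 0.286 and 12.3 in wild type. A short antisense gene, Wbscr25, shares 43 bases with Cldn3.

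Cldn1 (chromosome 16, 26356643 to 26371841), a claudin of many epithelia and of the skin barrier, went the other way on few reads. It had 3 and 15 counts in KPC, against 58 and 10 counts in wild type, or 0.0510 and 0.221 CPM in KPC against 1.10 and 0.447 CPM in wild type. The groups did not overlap in CPM. KPC 1 stood at 0.0462 times wild type 1 (exact 95% interval from counting error 0.00926 to 0.142) and KPC 2 at 0.495 times wild type 2 (0.208 to 1.23), so the second difference was within counting error. The log2 fold change was -2.52 ± 0.80 (SE), and it ran from -3.90 to -1.67 with 1 library left out.

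**Figure D2:**
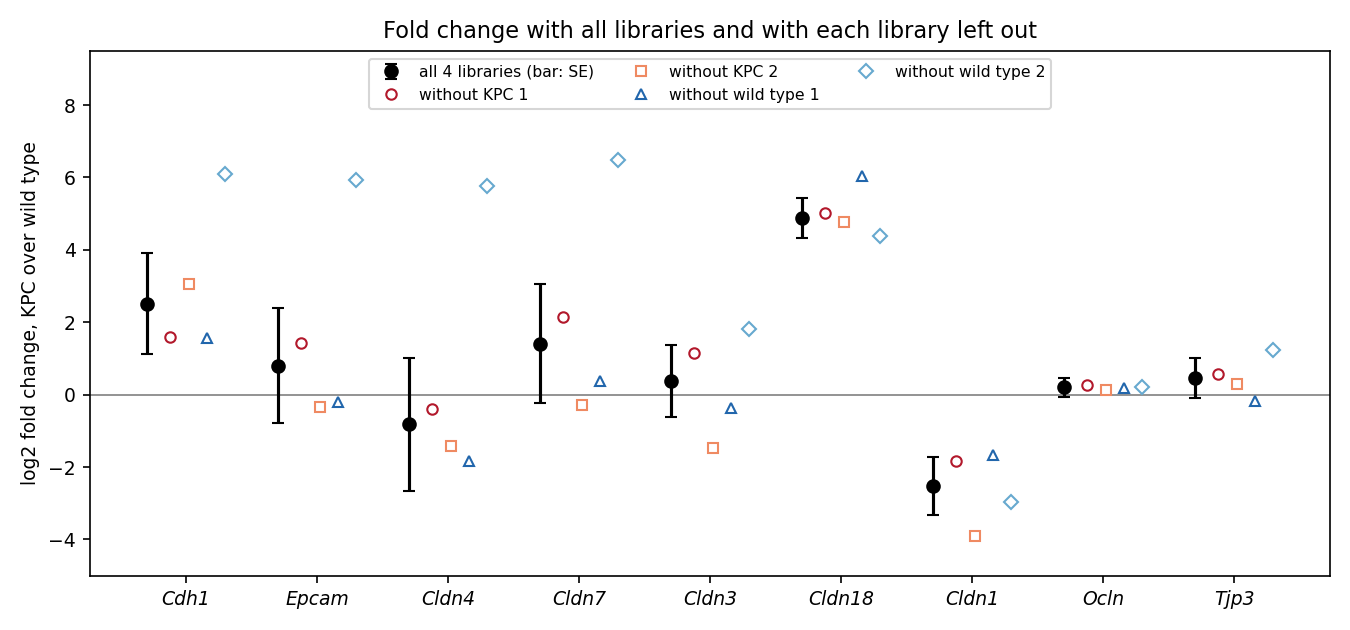
Log2 fold change of the 9 genes, KPC over wild type, with all 4 libraries (black, bars are SE) and with each library left out in turn (open symbols). Cldn18 stays between 4.38 and 6.04, whereas Cdh1, Epcam, Cldn4 and Cldn7 lie between 5.78 and 6.49 without wild type 2 and far lower with it.

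Ocln and Tjp3 had log2 fold changes below 0.5. Ocln (chromosome 13, 100496508 to 100552718) encodes occludin, a membrane protein of tight junctions, and stood at 2.69 and 2.93 CPM in KPC, against 2.44 and 2.46 CPM in wild type. The groups did not overlap, but the Poisson intervals of the 4 values did (2.28 to 3.14 and 2.54 to 3.37 CPM in KPC, 2.03 to 2.90 and 1.85 to 3.20 CPM in wild type), so the difference was not detectable at this depth. The log2 fold change of Ocln was 0.20 ± 0.26 (SE). In wild type 1, where Epcam had 10 counts, Ocln kept its level, with a ratio to Epcam of 12.8, against 0.181 in wild type 2 and, in KPC, 0.497 and 0.162. Tjp3 (chromosome 10, 81273208 to 81291267) encodes ZO-3, a scaffold protein of epithelial tight junctions, and stood at 0.612 and 0.737 CPM in KPC, against 0.285 and 0.760 CPM in wild type. Those groups overlapped, on 15 to 50 counts a library, and the log2 fold change of 0.46 ± 0.55 (SE) was -0.17 without wild type 1. Tjp3 shares 39 bases with Apba3 on the opposite strand.

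Per length of merged exon, the order of the genes differed between libraries. In KPC 1, Cdh1 led with 18.4 CPM per kilobase, followed by Cldn4 at 4.64 and Epcam at 2.65. In KPC 2 the highest were Cldn4, Epcam, Cldn7 and Cdh1, at 9.30, 8.89, 8 and 6.65 CPM per kilobase. In wild type 1 Cldn3 and Ocln led at 0.635 and 0.577 CPM per kilobase, and Cldn7 was last at 0.0516. In wild type 2 Cldn4 led at 24.7, with Epcam at 6.67 and Cdh1 at 4.27, and Cldn18 was last at 0.0402. Each order rests on 1 library, so the spread between libraries is not known for it. Summed over the 9 genes, the level was 112.5 and 97.9 CPM in KPC, against 6.51 and 89.9 CPM in wild type.

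**Figure D3:**
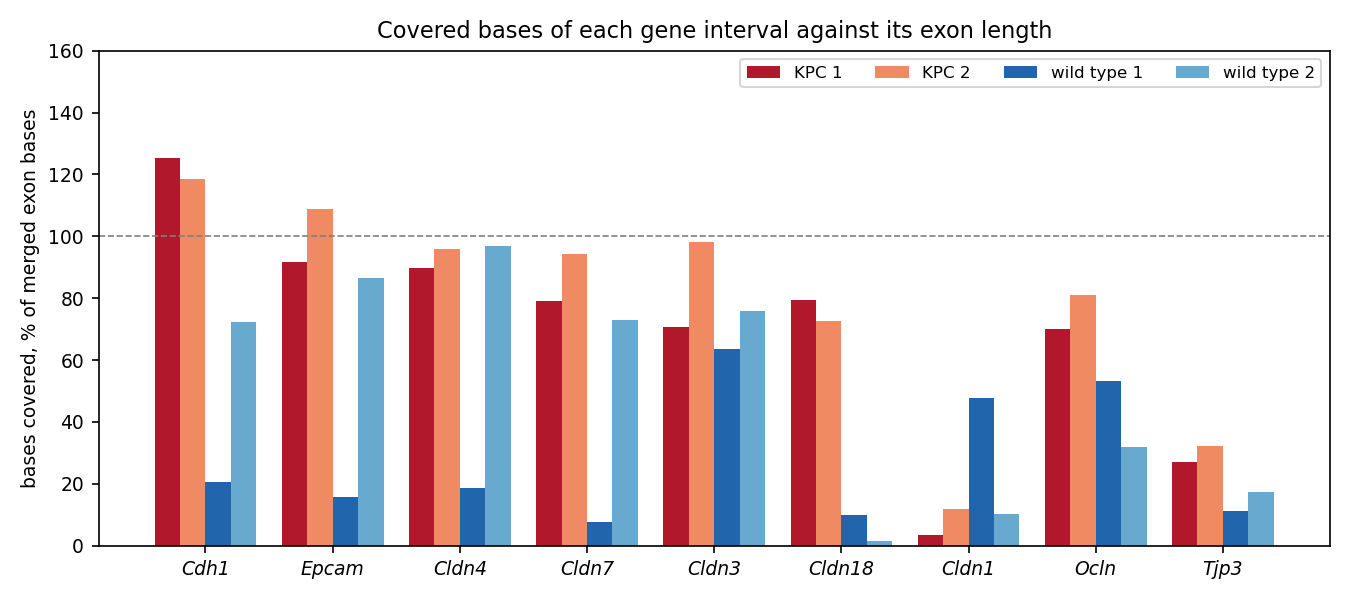
Bases covered by reads in the whole gene interval as a percentage of merged exon bases, by gene and library; the dashed line marks 100%. Cldn18 reached 79.6% and 72.5% in KPC and 9.90% and 1.62% in wild type, and wild type 1 was the lowest library for Cdh1, Epcam, Cldn4 and Cldn7.

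Other genes of epithelial junctions were listed for comparison. Of all rows tested, 20.6% were higher and 20.5% lower in both KPC libraries. Of 20 other claudins, 10 were tested, edgeR's quasi-likelihood test and DESeq2 called 0 (1 higher and 0 lower at an unadjusted edgeR p under 0.05), 2 were higher and 4 lower in both KPC libraries, and the median log2 fold change was -0.17. By mean level the first were Cldn12 (28.0 and 27.4 CPM in KPC, 17.4 and 29.1 CPM in wild type) and Cldn25 (22.1 and 13.3 CPM in KPC, 16.7 and 15.7 CPM in wild type), which overlapped between groups. The other 2 by that rule were Cldn6, given above, and Cldn2, a pore-forming claudin gene, at 14.3 and 1.65 CPM in KPC against 2 counts (0.038 CPM) and 0.492 CPM in wild type; these were the 2 higher in both KPC libraries. Cldn5, the claudin gene of endothelium, ran at 0.051 and 1.47 CPM in KPC against 7.13 and 1.65 CPM in wild type. Endothelial markers, such as Pecam1 and Emcn, were highest in the same wild type 1 library (7 genes, summed level 15.0 and 26.6 CPM in KPC, 690 and 37.3 CPM in wild type).

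The remaining tight and adherens junction genes went both ways. Of 25 other tight junction genes 6 were higher and 4 lower in both KPC libraries (median log2 fold change 0.16). Of 14 adherens junction genes 1 was higher and 3 lower (median -0.05). The shares over all rows were 20.6% higher and 20.5% lower. edgeR called 0 genes of either list. At an unadjusted p under 0.05 it had 2 tight junction genes higher and 2 lower, and 1 adherens junction gene higher and 2 lower. DESeq2 called 1 tight junction gene lower and, of the adherens list, 1 higher and 1 lower. Of all rows it called 1.44% higher and 1.28% lower. The scaffold gene Tjp1 (16.8 and 12.2 CPM in KPC, 20.4 and 14.2 CPM in wild type) overlapped between groups, as did the junction genes Amotl1, Cgnl1 and F11r. The catenin genes Ctnna1 and Ctnnb1, which link cadherins to actin, had 242 and 180 CPM and 224 and 166 CPM in KPC, against 238 and 170 CPM and 245 and 165 CPM in wild type. Mllt4 and Vcl, which encode actin-linking proteins of the same junctions, had 165 and 200 CPM and 165 and 134 CPM in KPC, against 201 and 170 CPM and 178 and 162 CPM in wild type. Cdh2, the N-cadherin gene, had 59.2 and 30.6 CPM in KPC against 63.3 and 37.2 CPM in wild type, and Cdh11, the mesenchymal cadherin-11 gene, had 43.7 and 36.9 CPM in KPC against 78.5 and 43.3 CPM in wild type. Unlike Cdh1, these cadherins were not at their lowest in wild type 1. Cdh3, the P-cadherin gene, was the 1 adherens gene higher in both KPC libraries, at 10.2 and 6.83 CPM in KPC against 3.06 and 3.04 CPM in wild type, and was named after its values were seen. So were the other genes named below that did not overlap between groups. Higher in both KPC libraries were Lsr, an epithelial tricellular junction gene (11.2 and 11.5 CPM in KPC, 1.24 and 5.46 CPM in wild type), Cxadr (40.9 and 13.9 CPM in KPC, 7.74 and 10.3 CPM in wild type) and Cgn, the cingulin gene (5.07 and 3.89 CPM in KPC, 0.742 and 3 CPM in wild type). Lower in both were Jam2 (3.86 and 5.94 CPM in KPC, 32.8 and 12.2 CPM in wild type) and Cdh5, the cadherin gene of endothelium (3.59 and 4.51 CPM in KPC, 58.5 and 6.40 CPM in wild type). Jam2 and Cdh5, like the endothelial markers, were highest in wild type 1. Of the other genes of these lists lower in both KPC libraries, Mpdz was highest there too, but Jam3, Prkcz, Pvrl1 and Pvrl3 were not. Ildr2, Inadl and Pard6b were also higher in both KPC libraries, and Ildr2 was lowest in wild type 2.

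Desmosome genes were close to the 9 genes in their median, and the regulators of epithelial adhesion had a higher one. Of 8 desmosome genes 7 had a positive log2 fold change (median 0.41), but 1 was higher in both KPC libraries. Dsp, the desmoplakin gene, had 8.81 and 2.76 CPM in KPC against 1.27 and 2.77 CPM in wild type, and Pkp2, Pkp4 and Perp also overlapped between groups. Of 17 regulators 16 were tested, 15 had a positive log2 fold change (median 0.85), 6 were higher and 1 lower in both KPC libraries, and edgeR and DESeq2 called 0 in either list. At an unadjusted edgeR p under 0.05, each list had 1 gene higher and 0 lower. Of all rows tested, 20.6% were higher and 20.5% lower in both KPC libraries. Spint1 and Spint2, protease inhibitors of epithelia, stood at 7.68 and 9.83 CPM and at 23.6 and 23.8 CPM in KPC, against 0.0761 and 5.19 CPM and 10.7 and 15.0 CPM in wild type. Their target protease gene St14 (54.8 and 57.0 CPM in KPC, 53.8 and 52.4 CPM in wild type) and the splicing regulator gene Esrp2 (7.90 and 6.94 CPM in KPC, 3.96 and 9.97 CPM in wild type) were the other 2 of highest level.

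The repressors of E-cadherin were present in all 4 libraries. Of 6 such genes 0 were higher and 2 lower in both KPC libraries, against 20.6% and 20.5% of all rows. Their median log2 fold change was -0.39. edgeR and DESeq2 called 0, and 0 had an unadjusted edgeR p under 0.05. Zeb1 had 20.8 and 15.0 CPM in KPC against 23.3 and 22.0 CPM in wild type, Zeb2 26.8 and 31.5 CPM in KPC against 31.3 and 24.3 CPM in wild type, and Snai1 13.7 and 20.4 CPM in KPC against 17.4 and 29.1 CPM in wild type. Snai2 was highest in wild type 1, at 8.18 and 9.08 CPM in KPC against 21.1 and 6.93 CPM in wild type.

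**Figure D4:**
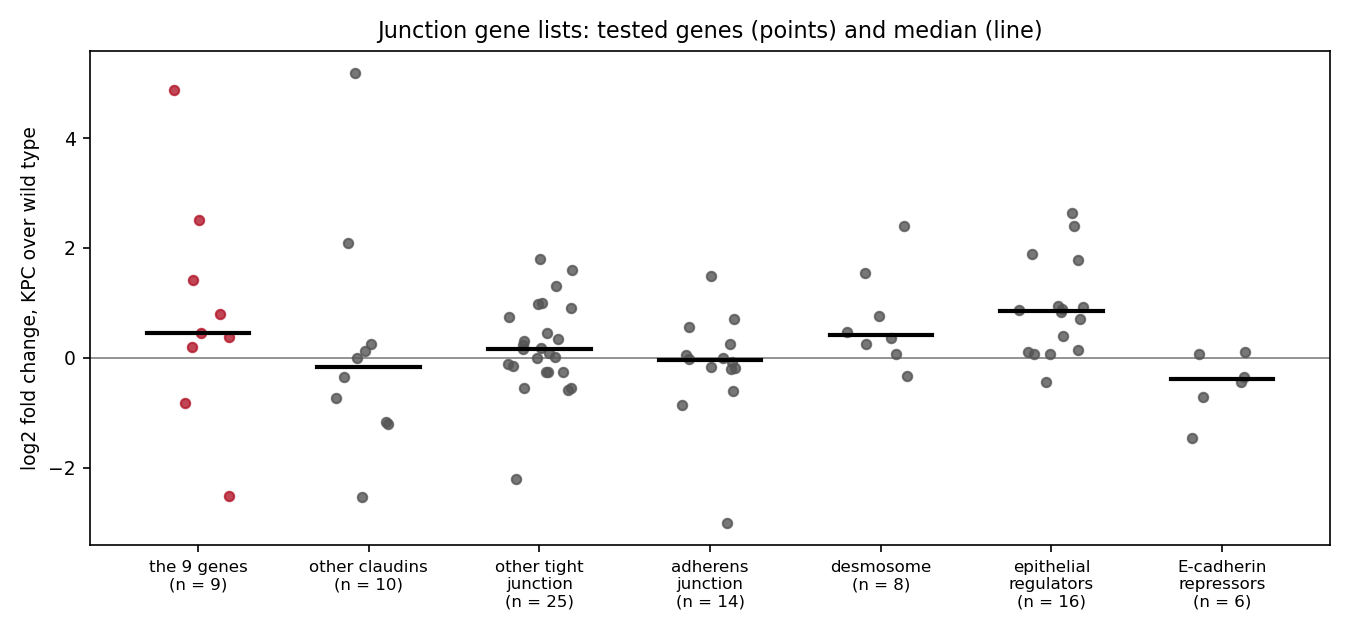
Log2 fold change, KPC over wild type, of each tested gene in the 9 genes and in 6 lists of junction genes and regulators; lines are medians and n is the number tested. The medians run from -0.39 for the E-cadherin repressors to 0.85 for the epithelial regulators, and that of the 9 genes is 0.46.

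Markers of other cell types differed between the same libraries. Of 10 ductal epithelial markers 9 had a positive log2 fold change, and their summed level was 1964 and 1425 CPM in KPC against 63.5 and 664 CPM in wild type, with wild type 1 lowest, as for the 9 genes. The keratin genes Krt8 and Krt18 had 490 and 85.1 CPM and 465 and 121 CPM in KPC, against 0.399 and 146 CPM and 21.1 and 134 CPM in wild type. They were highest in KPC 1, as Cdh1 was. Krt7 was highest in KPC 2, as Epcam was, at 37.9 and 116 CPM in KPC against 1.54 and 42.8 CPM in wild type. Spp1, which macrophages express too, had 860 and 1050.2 CPM in KPC against 29.7 and 310 CPM in wild type. It was the largest part of the ductal sum in every library. Most of the gap in that sum between KPC 2 and wild type 2 was Spp1.

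Endocrine cells also express Cdh1 and Epcam. The 8 endocrine markers summed to 0.527 and 1.30 CPM in KPC against 1.77 and 944 CPM in wild type. Wild type 2, where they were high, was the library with most Cldn4, whereas Cdh1 was highest in KPC 1 and Epcam in KPC 2. In KPC 1 the hormone genes Ins1, Gcg, Sst and Ppy had 0 counts, while Ins2, Iapp, Chga and Chgb had 4, 1, 11 and 15; all 8 listed genes are named here, beyond the 4 of highest level. Mesothelial markers, 4 of 7 with a positive log2 fold change, summed to 110 and 31.5 CPM in KPC and 28.7 and 26.7 CPM in wild type, and most of the KPC 1 sum was Msln (76.7 and 17.2 CPM in KPC, 0.837 and 8.72 CPM in wild type). The other mesothelial genes of highest level differed: Wt1 had 13.2 and 10.1 CPM in KPC against 1.01 and 7.25 CPM in wild type, Upk1b 17.3 and 2.67 CPM in KPC against 16.4 and 8.50 CPM in wild type, and Gpm6a 0.255 and 0.413 CPM in KPC against 9.93 and 0.313 CPM in wild type. Acinar markers were low in all 4 libraries, at 10.1 and 9.36 CPM in KPC and 5.99 and 8.50 CPM in wild type. Macrophage markers were higher in both KPC libraries in 10 of 10 cases, where 20.6% of all rows were. They summed to 831 and 1729 CPM in KPC and 70.4 and 227 CPM in wild type. Schwann markers, 0 of 5 tested with a positive log2 fold change, summed to 1.17 and 0.840 CPM in KPC and 26.7 and 3.67 CPM in wild type. edgeR called 0 genes of the cell type lists. DESeq2 called 5 macrophage, 1 ductal and 1 acinar marker higher, and 4 Schwann and 3 endocrine markers lower. Its calls were 0 in the mesothelial, endothelial and fibroblast lists. Of all rows it called 1.44% higher and 1.28% lower. The part of these cell types in the levels of the 9 genes was not tested. In bulk RNA, fewer cells of a type and less RNA per cell cannot be told apart.

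**Figure D5:**
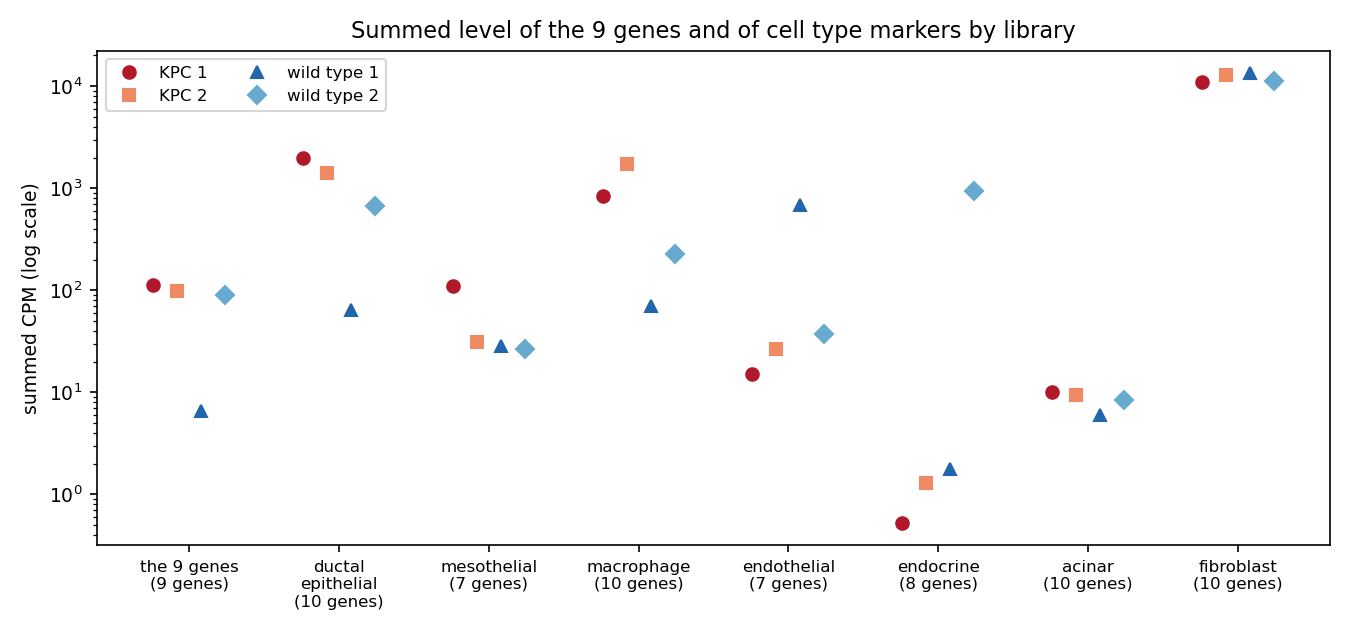
Summed CPM (log axis) of the 9 genes and of 7 cell type marker lists in each library; numbers of listed genes are in brackets. The 9 genes and the ductal markers are lowest in wild type 1 (6.51 and 63.5 CPM), and the endocrine markers are high in wild type 2 alone (944 CPM). The fibroblast sum, mostly Col1a1, Col1a2, Vim and Fn1, lies between 11109 and 13402 CPM in all 4 libraries.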

How the data were processed

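RNA of 4 cultures of mouse pancreatic fibroblasts was sequenced after poly-A selection, per the labels' protocols. Per the submitters' processing notes, TopHat2 2.0.3, FastQC 0.10.1, bedtools and SAMtools 0.1.18 were used on the mm10/GRCm38 build; the step of each is not given in the sources used here. The authors deposited for each library a read count per gene interval, its length, its covered bases and their fraction. The deposited counts were taken as raw from their values, whole numbers with different totals. The deposited fraction was used only to check the covered bases.

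All rows were fitted in R 4.3.3 with edgeR 4.0.16, after filterByExpr (minimum count 10), TMM factors (0.988 to 1.02) and a quasi-likelihood test (two-sided). Benjamini-Hochberg adjustment covered 23046 rows, with calls at 0.05. Each standard error was obtained from the log2 fold change without shrinkage and the F statistic. CPM are counts scaled to the library total after TMM. Exon lengths are merged exons of coding transcripts in GENCODE M21, which uses the same build. DESeq2 1.42.0, limma 3.58.1 (voom), other factors and filters, fits without each library and a fit with the replicate number as a block were alternatives. Scripts were tested on simulated data. Poisson intervals at 95% and the limit that a count of 0 allows (3 counts) cover counting error only.

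The 9 genes and all gene lists were chosen with earlier results of these data known, so the difference of the 9 genes between groups is described and not tested. Each of the 9 symbols had 1 row. From every other list the text names the 4 tested genes of highest mean CPM, with Cldn5, Tjp1, Cdh2 and Cdh11; likeness of pattern is the root mean square difference of centred log2 CPM (prior count 2) over the 4 libraries, among named coding genes with a mean of at least 1 CPM. Other genes named are said to be so. Some genes that this rule selects are not reported here.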

Additional observations from a re-analysis of the deposited data

How the results depend on the processing

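With 2 libraries a group, single libraries decide most values. Leaving out 1 library in turn, which assumes that a library without a partner varies as the other group does, moved the edgeR calls over all rows between 0 and 835 (0 with all 4 libraries; 5 without wild type replicate 1 and 835 without wild type replicate 2), and the median log2 fold change of the 9 genes between -0.29 and 4.38 (0.46 with all 4). DESeq2 called 627 rows; the cause was not tested. Other factors, filters, limma voom, a threshold of 0.10 and the replicate block left the edgeR or voom calls at 0. Cldn1 and Tjp3 did not pass the filter of at least 1 CPM in 2 libraries, under which the median of the others was 0.79. 3 of the 9 genes were higher in both KPC libraries under all 4 choices of factors. The replicate numbers are shared between groups, but nothing in the labels pairs libraries. Over all rows tested, same-numbered libraries shared little (correlation of deviations 0.136). Of the genes followed, Cldn3, Cldn4, Cldn7, Epcam, Ocln and Tjp3 were higher in replicate 2 than in replicate 1 in both groups. Cldn18, Cldn1 and Cdh1 were not. For Ocln and Tjp3 the Poisson intervals of the replicates overlapped in both groups. How many of all rows had the same order was not counted. With the replicate block the median of the 9 genes was 1.45 and edgeR called 0 rows. Summing over all rows of a symbol was not run, because each of the 9 symbols has 1 row. Over 97 values of single genes under the other alternatives, 86 moved by less than the spread between libraries and 8 changed sign, all 8 without 1 library or with the block, in Cldn3, Cldn4, Cldn7, Epcam and Tjp3. Counts of 15 or fewer stand behind at least 1 library's value of Cldn18, Cldn1, Cldn4, Cldn7, Epcam and Tjp3, and limit the precision of their fold changes.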

Other observations

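Cldn18 is known from stomach epithelium, and 10 other gastric-type genes were listed beside it. Of these, 7 were tested, 5 had a positive log2 fold change (median 2.19) and 2 were higher in both KPC libraries, where 20.6% of all rows were. edgeR's quasi-likelihood test called 0 of them, and 0% of all rows, DESeq2 also called 0, and 2 were higher at an unadjusted edgeR p under 0.05. Their levels were mostly low. Anxa10, an annexin gene, had 27.3 and 2.06 CPM in KPC 1 and KPC 2, against 0.533 and 0.894 CPM in wild type. Ctse, the cathepsin E gene, did not separate the groups, at 33.9 and 22.5 CPM in KPC and 36.1 and 24.2 CPM in wild type. Vsig1, a gastric junction protein gene, was high in KPC 1 alone, at 1.92 and 0.0442 CPM in KPC and 0.228 and 0.179 CPM in wild type, and the trefoil factor gene Tff1 had 1.17 and 0.162 CPM in KPC against 0 counts (up to 0.0571 CPM) and 0.403 CPM in wild type. Anxa10, Vsig1 and Tff1 were thus higher in KPC 1 than in KPC 2. Named after their values were seen, Gkn1 was even between the KPC libraries, as Cldn18 was, and was the other gene higher in both (0.595 and 0.560 CPM in KPC, 0.114 and 0.0447 CPM in wild type), and Muc5ac was higher in KPC 2 (0.187 and 0.781 CPM in KPC, 0.038 and 0.224 CPM in wild type).

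Pdx1, the pancreatic epithelial factor gene whose promoter usually drives Cre in mice of this name, had 4 and 177 counts in KPC 1 and KPC 2 and 0 and 3 counts in wild type 1 and wild type 2. Pdx1 did not pass the filter on low counts and was not tested. KPC 2, the library with most Pdx1, was also the one with most Epcam, Cldn7, Cldn3 and Krt7, while KPC 1 had most Cdh1, Krt8 and Msln. Wild type 2, with 3 Pdx1 counts, was above KPC 1 for Epcam, Cldn7, Cldn3 and Krt7 (13.6, 5.37, 3.62 and 42.8 CPM in wild type 2). These values come from 1 library each.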
